A study of Mus musculus with 6 samples.

Results

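TNF superfamily ligands are the proteins by which an activated T cell delivers signals to receptors of the TNF receptor family on other cells and on its own surface. The 10 ligand genes described here were Tnf, Lta, Ltb, Tnfsf4, Tnfsf8, Tnfsf9, Tnfsf10, Tnfsf11, Tnfsf14 and Cd40lg. They are a part of this family, chosen with earlier results of these data known. All 10 were found among the 25638 genes of the expression table. They were measured in OT-I cells, mouse CD8+ T cells that carry a transgenic receptor for an ovalbumin peptide and are labelled as wild type. All 3 groups received that peptide during 48 hours of culture and differed in what was added: vehicle, TANs or TAMos. TANs were CD11b+ cells with Ly6G and low Ly6C, and TAMos were CD11b+ cells with high Ly6C and no Ly6G. Both came from spleens of mice bearing LLC (Lewis lung carcinoma) tumours, so that neither was taken from a tumour itself, and the labels give no age or sex of the animals. T cells were purified after the culture, and each group had 2 RNA libraries, which the labels do not assign to separate cultures or animals. The p-values therefore measure only the spread between these libraries, which may be technical.

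Ligands of this family are mostly trimeric proteins anchored in the membrane, and several are also released in soluble form by proteases. Tumour necrosis factor and lymphotoxin act in inflammation and in the organisation of lymphoid tissue, whereas OX40 ligand, CD30 ligand, 4-1BB ligand and CD40 ligand are costimulatory. RANK ligand drives osteoclast formation and supports dendritic cells, and TRAIL induces apoptosis through death receptors. In CD8+ T cells many of these genes are induced by the antigen receptor.

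The table holds FPKM, in which reads are scaled to gene length and to the M of reads counted in the library, so levels of different genes can be set side by side. Steps between low values corresponded to 41.7 to 45.2 M counted reads in 5 libraries. For the first TAMo library the value found was 43.7 M. Even numbers made up 98.8% of the low read numbers in that library and 60.4% to 63.8% in the other 5. Nearly all its values would thus also be whole at a lower depth, which lay outside the depths searched. The depth of the first TAMo library is therefore uncertain and may be lower. Both TAMo libraries stood apart from the other 4: mitochondrially encoded genes held 1.20% and 1.32% of their FPKM and 8.07% to 8.34% of that of vehicle and TAN libraries. Each of 9 CD8+ T cell genes was above 1 FPKM in all 6 libraries, and Cd4 reached at most 0.156 FPKM. Their sum lay between 5669 and 6084 FPKM, most of it Gzmb, the granzyme B gene, and did not show the changes of single markers with TAMo: the adhesion gene Cd2 fell from 189 and 203 FPKM with vehicle to 48.2 and 55.3 FPKM, Cd8a fell from 145 and 152 FPKM to 94.5 and 95.1 FPKM, and Cd3d, Cd3e and Cd3g rose.

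Changes were tested on the scale log2(FPKM + 1) with limma over the 10727 genes that reached 1 FPKM in at least 2 libraries, and a gene was called at a Benjamini-Hochberg adjusted p under 0.05. All 10 ligand genes passed this filter; for Tnfsf4 only the TAMo group had both libraries above 1 FPKM, so a difference in that gene was built into its passing. With TAN, 8 of the 10 were called, 3 of them higher (Lta, Tnfsf10 and Cd40lg) and 5 lower (Tnf, Ltb, Tnfsf8, Tnfsf11 and Tnfsf14), whereas 20.3% of all genes tested were called, 9.37% higher and 11% lower. Fasl and Cd70, the only other ligand genes of the family that passed the filter, were not called with TAN. As the 10 were chosen with earlier results known, their count does not stand for the family. With TAMo, all 10 were called, 6 higher (Tnfsf4, Tnfsf8, Tnfsf9, Tnfsf11, Tnfsf14 and Cd40lg) and 4 lower (Tnf, Lta, Ltb and Tnfsf10). There 86.5% of all genes were called, 45.7% higher and 40.7% lower, so the count alone sets the ligands little apart from other genes. The direct comparison of TAN with TAMo called 9 of the 10, 4 higher and 5 lower with TAN, against 86.6% of all genes, 40.6% higher and 46% lower. The median log2 change of the ligands was -0.17 with TAN and 0.33 with TAMo, beside -0.0050 and 0.057 over all genes tested.

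**Figure D1:**
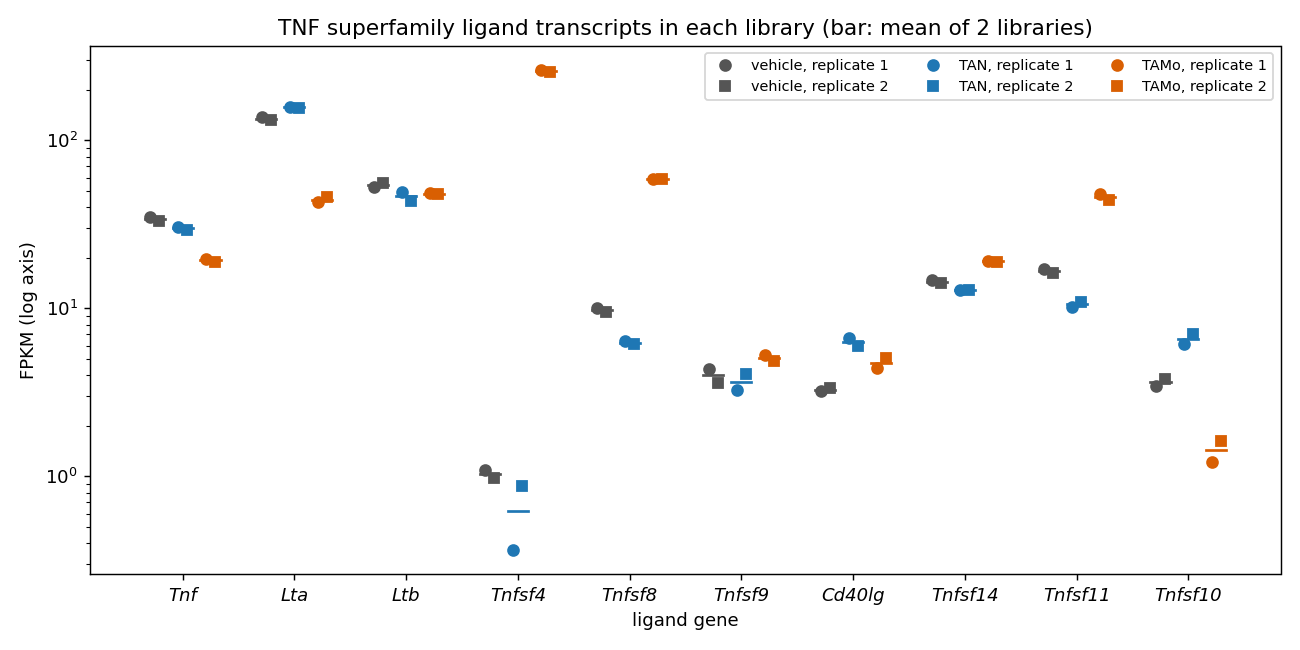
FPKM (log axis) of the 10 ligand genes in each of the 6 libraries; circles and squares are replicates 1 and 2, colours are the groups and bars the means of 2 libraries. Tnfsf4 sits near 1 FPKM or below in the vehicle and TAN libraries and at 262 and 255 FPKM in the TAMo libraries.

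Lta, Tnf and Ltb lie side by side on chromosome 17 (GRCm38), the first 2 on the minus strand and 1.16 kb apart, the third on the plus strand and 3.06 kb from Tnf. To show what lies before the start of ligand genes whose transcripts moved in different directions, 250 bases upstream of the RefSeq transcription start (GRCm38.p6) are printed for the 3 clustered genes, for Tnfsf8 and Tnfsf11, which fell with TAN and rose with TAMo, and for Tnfsf10, which did the reverse. The RefSeq promoter table matched 7 of the 10 members; Tnfsf4, Tnfsf9 and Cd40lg were not among them. Sequences read 5′ to 3′ on the strand of the gene and end at the base before the start. Capitals mark, on either strand, TATAAA (the TATA box), GGAAA (the core bound by NFAT, the factor of calcium signalling), TGANTCA (AP-1) and the NF-kappaB consensus. In Ltb the NF-kappaB match and a GGAAA match overlap.
Tnf promoter, chr17:35202008-35202257, minus strand: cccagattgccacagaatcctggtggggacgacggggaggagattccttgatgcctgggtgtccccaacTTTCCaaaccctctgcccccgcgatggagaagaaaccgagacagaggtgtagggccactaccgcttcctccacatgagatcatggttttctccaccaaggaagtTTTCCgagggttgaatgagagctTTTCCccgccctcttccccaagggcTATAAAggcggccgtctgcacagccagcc
Lta promoter, chr17:35205352-35205601, minus strand: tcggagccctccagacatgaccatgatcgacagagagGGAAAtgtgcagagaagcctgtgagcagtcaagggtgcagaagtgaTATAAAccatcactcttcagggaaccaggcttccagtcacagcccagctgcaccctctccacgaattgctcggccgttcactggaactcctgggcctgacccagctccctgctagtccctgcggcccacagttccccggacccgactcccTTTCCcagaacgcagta
Ltb promoter, chr17:35194257-35194506, plus strand: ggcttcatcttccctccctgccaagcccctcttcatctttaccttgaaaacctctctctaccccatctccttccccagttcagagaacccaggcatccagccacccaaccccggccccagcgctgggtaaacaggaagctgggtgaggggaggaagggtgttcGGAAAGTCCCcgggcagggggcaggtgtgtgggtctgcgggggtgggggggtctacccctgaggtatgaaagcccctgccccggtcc
Tnfsf8 promoter, chr4:63861285-63861534, minus strand: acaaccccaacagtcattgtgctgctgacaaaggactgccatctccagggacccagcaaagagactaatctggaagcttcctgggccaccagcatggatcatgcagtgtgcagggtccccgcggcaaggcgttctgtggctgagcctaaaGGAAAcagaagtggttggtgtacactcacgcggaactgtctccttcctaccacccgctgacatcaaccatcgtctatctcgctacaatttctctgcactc
Tnfsf11 promoter, chr14:78308044-78308293, minus strand: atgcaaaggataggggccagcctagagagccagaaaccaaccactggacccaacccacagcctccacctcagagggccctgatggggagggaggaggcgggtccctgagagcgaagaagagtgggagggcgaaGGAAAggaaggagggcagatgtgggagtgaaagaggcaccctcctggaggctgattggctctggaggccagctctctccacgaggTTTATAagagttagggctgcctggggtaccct
Tnfsf10 promoter, chr3:27316827-27317076, plus strand: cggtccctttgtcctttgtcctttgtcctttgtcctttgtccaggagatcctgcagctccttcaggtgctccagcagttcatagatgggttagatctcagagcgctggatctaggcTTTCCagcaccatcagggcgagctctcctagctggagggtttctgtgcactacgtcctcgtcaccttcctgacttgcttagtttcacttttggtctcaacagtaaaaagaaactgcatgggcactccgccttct

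TATAAA was found in the windows of Tnf (first base at -29 from the start), Lta (-167) and, on the opposite strand, Tnfsf11 (-32), and in 12.4% of 32817 mouse promoter windows of the same length. GGAAA occurred at least once in each of the 7 windows, 3 times in those of Tnf and Tnfsf14, but also in 55.6% of all windows. The NF-kappaB consensus matched in the Ltb window alone among the 7, at -87, and in 7.25% of all windows. TGANTCA matched only in that of Tnfsf14, at -160, and in 6.75% of all. The p53 element (7.12% of all windows) and a paired interferon regulatory factor element (2.97%), the other motifs searched, matched in none of the 7. These are letter matches within a short window and say nothing on binding of a factor.

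Tnf encodes tumour necrosis factor, a soluble and membrane-bound inflammatory cytokine (chromosome 17, 35199381 to 35202007). Its transcript stood at 34.9 and 32.9 FPKM in the vehicle libraries, 30.3 and 29.4 FPKM in the TAN libraries and 19.8 and 18.8 FPKM in the TAMo libraries. The 3 groups did not overlap, with vehicle highest and TAMo lowest. With TAMo Tnf was 1.76-fold lower than with vehicle (log2 change -0.78 ± 0.047 SE, adjusted p = 1.93e-06 by limma). With TAN it fell by 0.18 ± 0.047 on the log2 scale (adjusted p = 0.039). This call was lost with no filter on low values (adjusted p = 0.0856), under quantile normalisation (0.0584) and with no variance trend (0.0693). It was also lost when any 1 vehicle or TAN library was left out (log2 change -0.22 to -0.13). In bulk RNA, fewer expressing cells and less transcript per cell cannot be told apart, for this and every other ligand.

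Lta encodes lymphotoxin-alpha, which acts as a soluble homotrimer or, joined to lymphotoxin-beta, on the cell surface (chromosome 17, 35203165 to 35205351). It was the most abundant of the ligand transcripts with vehicle (137 and 132 FPKM) and with TAN (159 and 156 FPKM), and reached only 42.8 and 45.9 FPKM with TAMo. TAN libraries were thus the highest and TAMo libraries the lowest, without overlap. Relative to vehicle, Lta was 1.17-fold higher with TAN (log2 change 0.23 ± 0.040, limma adjusted p = 0.00987) and 3.03-fold lower with TAMo (-1.58 ± 0.040, adjusted p = 1.94e-08). Between the co-cultures the difference was 3.55-fold (adjusted p = 1.03e-08). The rise with TAN missed the threshold when either TAN library or vehicle replicate 2 was omitted, where the adjusted p reached 0.0727.

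Ltb encodes lymphotoxin-beta, the membrane anchor of the lymphotoxin heterotrimer (chromosome 17, 35194439 to 35196320). Values were 52.9 and 55.8 FPKM with vehicle, 49.2 and 43.6 FPKM with TAN, and 48.8 and 47.6 FPKM with TAMo. Both vehicle libraries were above the other 4, and the TAN range enclosed that of TAMo. The log2 change was -0.22 ± 0.058 with TAN (limma adjusted p = 0.0365) and -0.17 ± 0.058 with TAMo (adjusted p = 0.027), a direction that flipped to 0.031 (adjusted p = 0.625) when libraries were rescaled to one sum of FPKM. The TAN call was lost with no filter on low values (adjusted p = 0.115) and with no variance trend (0.079). It was also lost without vehicle replicate 1, vehicle replicate 2 or TAN replicate 2 (log2 change -0.26, -0.19 and -0.14). The TAMo call was lost with no filter (adjusted p = 0.0791), with no variance trend and on rescaling without mitochondrial transcripts. Leaving out vehicle replicate 2 or TAMo replicate 2 lost it too. Between TAN and TAMo the difference missed the threshold (-0.056, 95% interval -0.19 to 0.081).

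The ratio of Lta to Ltb FPKM was 2.59 and 2.36 with vehicle, 3.22 and 3.57 with TAN and 0.876 and 0.963 with TAMo. In both TAMo libraries the level of Ltb thus exceeded that of Lta, which no vehicle or TAN library showed. These ratios lie within a library and do not depend on how libraries are scaled to each other.

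Tnfsf4 encodes OX40 ligand, which costimulates cells bearing OX40 (chromosome 1, 161395409 to 161418410). It was at 1.09 and 0.972 FPKM with vehicle, 0.363 and 0.873 FPKM with TAN, and 262 and 255 FPKM with TAMo. Those low levels correspond to about 90 and 81 counted reads with vehicle and 30 and 72 with TAN, against 19591 in TAMo replicate 2. It was the lowest of the 10 ligands with vehicle and TAN and the highest with TAMo. There it was 251-fold above vehicle. Its log2 change of 7.0 ± 0.13 was the largest rise of log2(FPKM + 1) among the 10727 genes tested. That scale understates changes of low genes, so the place does not hold for folds, which were not ranked. As only its TAMo libraries both reached 1 FPKM, a difference was built into its passing of the filter. No p-value is therefore given for the rise. With TAN the log2 change of -0.35 ± 0.13 missed the threshold (limma adjusted p = 0.117, 95% interval -0.66 to -0.027). Without TAN replicate 2 it was -0.58 (adjusted p = 0.016) and without TAN replicate 1 it was -0.12 (adjusted p = 0.334), so that single libraries set this value.

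Markers of the added cells are given beside that rise. Of 15 monocyte and macrophage genes, 9 stayed under 1 FPKM in every library, C1qa and C1qb were listed at 0 throughout, and Lyz2 reached at most 0.182 FPKM. The summed level of the 15 was 38.5 and 43.0 FPKM with TAMo, below the 70.6 and 72.1 FPKM with vehicle and the 58.4 and 59.0 FPKM with TAN. Cd14, a monocyte surface receptor gene, stood at 2.84 and 3.17 FPKM with TAMo and at 0.0852 and 0.0563 FPKM with vehicle, and passed the filter on low values through the TAMo libraries alone. Of the other 5 tested, Ms4a6c and Cd68 rose with TAMo and 2 fell, where 86.5% of all genes were called. Ms4a6c had 4.88 and 6.28 FPKM against 2.38 and 2.62 FPKM, and Cd68, named here after its values were seen, 3.63 and 7.05 FPKM against 2.95 and 2.35 FPKM. Ly6c2, which CD8+ T cells also express, and Apoe fell. All 12 neutrophil genes stayed under 1 FPKM, S100a8 and S100a9 at 0. Among 11 dendritic cell genes the sum without Ccr7, a homing receptor gene that T cells express too, was 51.4 and 55.6 FPKM with TAMo and 77.7 and 78.8 FPKM with vehicle. With Ccr7 it was 3730 and 3798 FPKM with TAMo, and 289 and 296 FPKM with vehicle. Most of the sum without Ccr7 was Cd74 (34.8 and 36.0 FPKM with vehicle) and H2-Ab1 (33.8 and 33.0 FPKM with vehicle), which set its direction. Cd74, H2-Ab1 and H2-Aa, of antigen presentation, fell with TAMo. Zbtb46, a transcription factor gene of dendritic cells, rose with TAMo from 1.93 and 1.51 FPKM to 5.90 and 5.09 FPKM. Xcr1, of the same list, was not tested, at 0.0451 and 0.0199 FPKM with vehicle and 0.687 and 0.533 FPKM with TAMo. The sum of 6 NK cell genes was 62.2 and 60.8 FPKM with TAMo and 28.8 to 29.6 FPKM elsewhere. Klrd1 rose from 14.5 and 14.9 FPKM with vehicle to 46.4 and 45.1 FPKM with TAMo. Gzma rose from 1.07 and 0.849 FPKM to 4.53 and 4.46 FPKM, and Eomes fell from 13.7 and 13.8 FPKM to 11.29 and 11.28 FPKM. Ncr1, Klrb1c and Klra8 were not tested and reached at most 0.0315 FPKM. The part of such cells in the level of Tnfsf4 was not tested.

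Tnfsf8 encodes CD30 ligand (chromosome 4, 63831308 to 63861347). It measured 9.99 and 9.54 FPKM with vehicle, 6.34 and 6.16 FPKM with TAN, and 58.6 and 58.8 FPKM with TAMo. The groups were separate, with TAN lowest and TAMo highest. Compared with vehicle, the transcript was 1.56-fold lower with TAN (log2 change -0.57 ± 0.046, limma adjusted p = 0.000657) and 6.01-fold higher with TAMo (2.47 ± 0.046, adjusted p = 4.74e-09). Under each of 17 alternative settings both calls held. The co-cultures differed from each other 9.39-fold (adjusted p = 1.93e-09).

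Tnfsf9 encodes 4-1BB ligand, a costimulator of CD8+ T cells (chromosome 17, 57105325 to 57107757). Its values were low and varied within groups: 4.37 and 3.61 FPKM with vehicle, 3.28 and 4.05 FPKM with TAN, and 5.27 and 4.86 FPKM with TAMo. The TAMo libraries were the highest, and the vehicle and TAN libraries overlapped. The log2 change was 0.28 ± 0.11 with TAMo (limma adjusted p = 0.0424), lost on leaving out vehicle replicate 2 (adjusted p = 0.235) or TAMo replicate 1 (0.135), under the replicate block (0.0597) and with 4 other settings. With TAN it was -0.099 (95% interval -0.36 to 0.16, adjusted p = 0.576). A long noncoding gene, Gm11110, overlaps Tnfsf9 on the opposite strand, and the strand setting of the counting is not known.

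Cd40lg encodes CD40 ligand, best known from helper CD4+ T cells, where it activates B cells and dendritic cells (chromosome X, 57212143 to 57224042). The transcript was at 3.21 and 3.34 FPKM with vehicle, 6.68 and 5.93 FPKM with TAN, and 4.42 and 5.09 FPKM with TAMo. Vehicle was lowest, TAMo intermediate and TAN highest, with no overlap. It rose 1.92-fold with TAN (log2 change 0.77 ± 0.087, limma adjusted p = 0.00198) and 1.45-fold with TAMo (0.42 ± 0.087, adjusted p = 0.00232). By log2 change, the rise with TAN had place 41 from the top among all genes tested. TAN exceeded TAMo by 0.35 ± 0.087 (adjusted p = 0.00657), which missed the threshold when libraries were rescaled to one sum (0.18, adjusted p = 0.0877). Among 6 genes that mark CD4+ T cells, Cd4 and Foxp3 were not tested and reached at most 0.156 and 0.0782 FPKM. Bcl6, the factor of follicular helper cells, was not tested either, at 0.424 and 0.445 FPKM with vehicle, 0.259 and 0.348 FPKM with TAN and 1.06 and 0.579 FPKM with TAMo. Cxcr5, a receptor gene of the same cells, rose in both co-cultures, and Zbtb7b rose with TAMo. Il21 was at 0.93 and 0.737 FPKM with vehicle, 1.53 and 2.14 FPKM with TAN and 8.29 and 8.59 FPKM with TAMo, and passed the filter through the co-cultures alone.

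Tnfsf14 encodes LIGHT, which binds the herpesvirus entry mediator and the lymphotoxin-beta receptor (chromosome 17, 57189492 to 57194177). It stood at 14.6 and 14.2 FPKM with vehicle, 12.84 and 12.79 FPKM with TAN, and 19.0 and 18.9 FPKM with TAMo. Replicates lay close together and the groups were separate. The log2 change was 0.38 ± 0.044 with TAMo (limma adjusted p = 0.000102). With TAN it was -0.16 ± 0.044 (adjusted p = 0.0447), a call lost under 10 of 17 alternatives, among them leaving out any 1 vehicle or TAN library (adjusted p up to 0.182).

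Tnfsf11 encodes RANK ligand (chromosome 14, 78277445 to 78308043). Levels were 17.1 and 16.3 FPKM with vehicle, 10.24 and 10.95 FPKM with TAN, and 47.6 and 44.3 FPKM with TAMo, so that TAN was lowest and TAMo highest without overlap. The gene fell 1.58-fold with TAN (log2 change -0.61 ± 0.055, limma adjusted p = 0.00096) and rose 2.75-fold with TAMo (1.40 ± 0.055, adjusted p = 1.89e-07). Each of these calls held under all 17 alternatives. Between the co-cultures the difference was 4.33-fold (adjusted p = 3e-08).

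Tnfsf10 encodes TRAIL, a ligand of death receptors that interferons induce in many cells (chromosome 3, 27317028 to 27342427). It was measured at 3.46 and 3.81 FPKM with vehicle, 6.13 and 7.06 FPKM with TAN, and 1.22 and 1.63 FPKM with TAMo. TAN libraries were highest and TAMo libraries lowest. The transcript rose 1.81-fold with TAN (log2 change 0.71 ± 0.11, limma adjusted p = 0.00595) and was 2.55-fold lower with TAMo (-0.94 ± 0.11, adjusted p = 8.96e-05), and the co-cultures differed 4.63-fold (adjusted p = 3.32e-06). Leaving out vehicle replicate 1 or TAN replicate 2 took the TAN call past the threshold, to an adjusted p of 0.0535 and 0.0511 respectively.

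**Figure D2:**
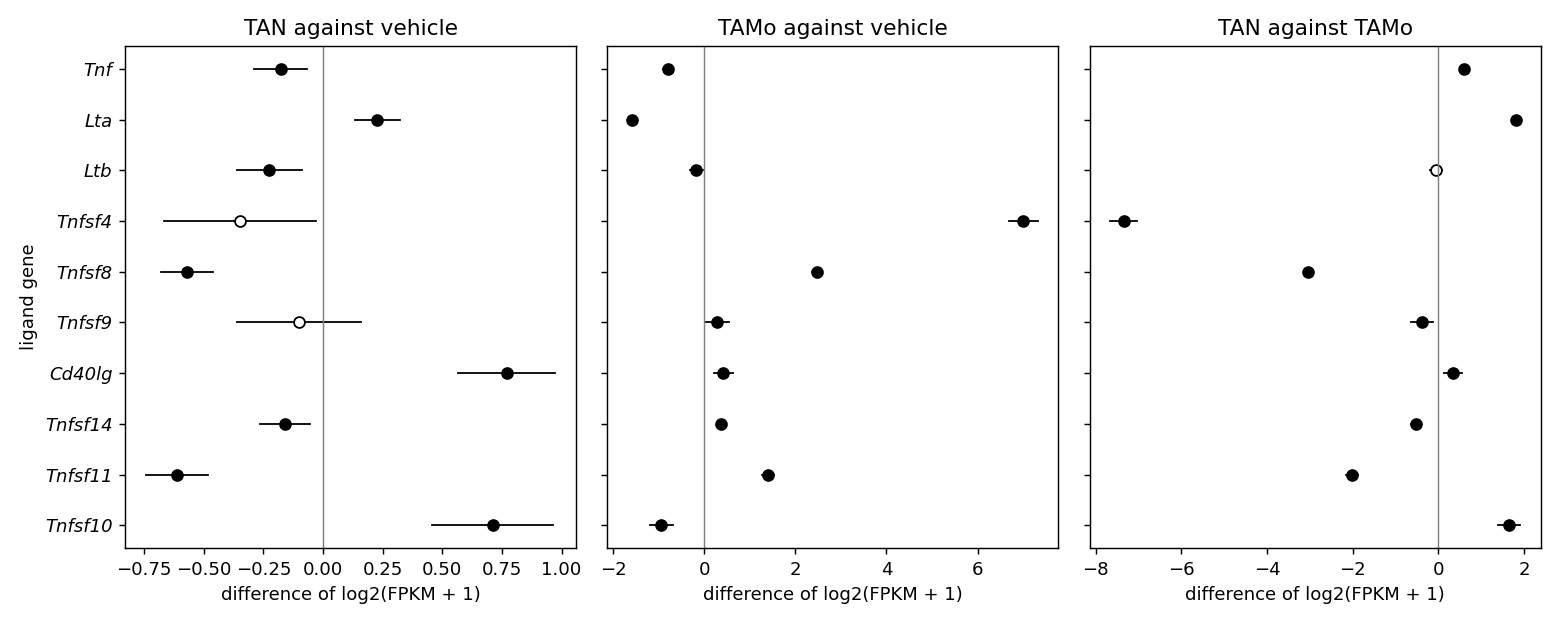
Difference of log2(FPKM + 1) for each ligand gene in the 3 comparisons, with 95% intervals from the limma fit; filled points have an adjusted p under 0.05, and each panel has its own axis. Tnfsf8 and Tnfsf11 lie left of 0 with TAN and right of it with TAMo, and Tnfsf4 reaches 7.0 with TAMo.

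Both comparisons with vehicle use the same vehicle libraries, so the difference of the co-cultures is read from their direct comparison. It gave log2 values for TAN relative to TAMo of 1.81 ± 0.040 for Lta, 1.65 ± 0.11 for Tnfsf10, 0.61 ± 0.047 for Tnf and 0.35 ± 0.087 for Cd40lg, the 4 ligands higher with TAN. The 5 lower with TAN were Tnfsf4 (-7.34 ± 0.13), Tnfsf8 (-3.04 ± 0.046), Tnfsf11 (-2.02 ± 0.055), Tnfsf14 (-0.53 ± 0.044) and Tnfsf9 (-0.38 ± 0.11). For Tnfsf4 a difference was built into its passing of the filter. Calls of 7 of these 9 held under every alternative; Cd40lg was lost on rescaling to one sum, and Tnfsf9 with no filter on low values (adjusted p = 0.0508) and without TAN replicate 1 (0.0832).

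In sum over the 10 genes, ligand transcripts amounted to 275 ± 4.45 FPKM with vehicle, 280.4 ± 5.06 FPKM with TAN and 505 ± 6.30 FPKM with TAMo (SD, n = 2). Without Tnfsf4 the sum was 247 ± 1.11 FPKM with TAMo and 274 ± 4.36 FPKM with vehicle, an order that turned when libraries were rescaled to one sum of FPKM (271 ± 1.82 with TAMo and 262 ± 3.92 with vehicle). Lta held 49.1% and 48.4% of the sum with vehicle, 55.9% and 56.3% with TAN, and 8.39% and 9.16% with TAMo. Tnfsf4 held at most 0.392% in the vehicle and TAN libraries and 51.5% and 50.9% with TAMo, and Tnfsf8 went from 3.59% and 3.51% with vehicle to 11.5% and 11.7%. The order of the levels therefore changed at the top. With vehicle and TAN it began with Lta, Ltb and Tnf; with TAMo it began with Tnfsf4, Tnfsf8 and Ltb. Neighbours in that order whose libraries overlapped were Tnfsf9 and Tnfsf10 with vehicle, Tnfsf10, Cd40lg and Tnfsf8 with TAN, and Tnfsf11 and Lta, Tnf and Tnfsf14, and Tnfsf9 and Cd40lg with TAMo.

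**Figure D3:**
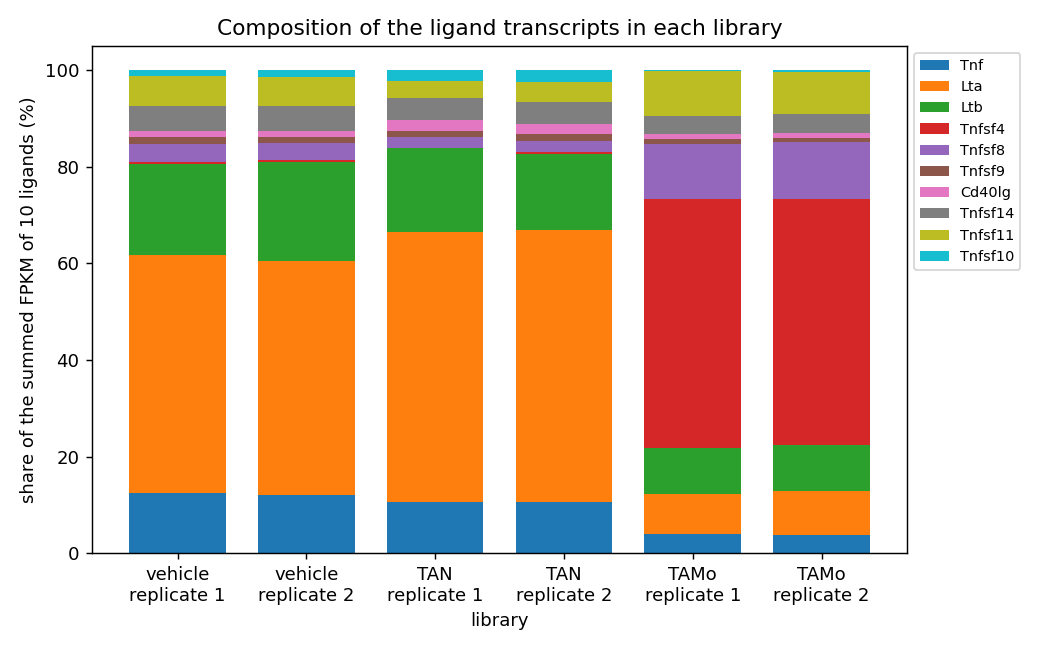
Share of each ligand gene (%) in the summed FPKM of the 10 ligands, one stacked bar per library. Lta fills 48.4% to 56.3% of the vehicle and TAN bars, and Tnfsf4 51.5% and 50.9% of the TAMo bars.

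Of the 8 other ligand genes of the family, only Fasl and Cd70 passed the filter. Fasl, the gene of Fas ligand on chromosome 1, had 31.3 and 30.9 FPKM with vehicle, 29.0 and 29.3 FPKM with TAN, and 24.6 and 26.4 FPKM with TAMo. It was lower with TAMo (log2 change -0.28 ± 0.043, limma adjusted p = 0.000516), and with TAN its change of -0.090 did not pass (adjusted p = 0.192). Tnfsf18, which encodes GITR ligand and lies between Tnfsf4 and Fasl at 76.2 kb from the former, was listed at 0 in 4 libraries and reached at most 0.0221 FPKM. Cd70, the CD27 ligand gene between Tnfsf9 and Tnfsf14, was at 0.477 and 1.13 FPKM with vehicle, 0.212 and 0.424 FPKM with TAN, and 2.76 and 2.02 FPKM with TAMo. As only its TAMo libraries both reached 1 FPKM, no test is given. Its level rests on 8 to 71 reads in the libraries other than TAMo replicate 1, whose depth is uncertain. Tnfsf15, the neighbour of Tnfsf8 at 86.2 kb, did not exceed 0.0574 FPKM. These neighbours stayed near 0 in the libraries where Tnfsf4 and Tnfsf8 were the most abundant of the 10 ligands. Tnfsf12, Tnfsf13, Tnfsf13b and Eda reached at most 0.150 FPKM.

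Receptors of the 10 ligands were compared in the same cells. Of 13 genes, 10 were tested; with TAN 2 rose, 1 fell and 7 did not pass (median 0.055), beside 20.3% of all genes called and their median of -0.0050. With TAMo 8 rose and 2 fell (median 1.01), beside 86.5% of all genes called, 45.7% higher and 40.7% lower, and their median of 0.057. One of the 8, Tnfrsf23, passed the filter through the TAMo libraries alone, so its rise was built in. Tnfrsf4, which encodes OX40, was at 422 and 409 FPKM with vehicle, 374 and 379 FPKM with TAN, and 172 and 171 FPKM with TAMo, and was lower in both co-cultures than with vehicle. The ratio of Tnfsf4 to Tnfrsf4 was 0.00258 and 0.00238 with vehicle and 1.53 and 1.49 with TAMo.

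Tnfrsf8, the gene of CD30, stood at 3.41 and 3.07 FPKM with vehicle, 16.7 and 17.4 FPKM with TAN (log2 change 2.09 ± 0.073, limma adjusted p = 2.23e-05), and 0.795 and 0.728 FPKM with TAMo (-1.27 ± 0.073, adjusted p = 1.63e-06). Tnfsf8 exceeded its receptor 2.93- and 3.10-fold with vehicle and 73.6- and 80.8-fold with TAMo, and reached 0.381 and 0.353 of it with TAN. Tnfrsf9, the gene of 4-1BB, was at 499.7 and 497 FPKM with vehicle, 505 and 508 FPKM with TAN, and 1242 and 1221 FPKM with TAMo, and the level of Tnfsf9 was 0.00398 to 0.00875 of it. Tnfrsf14, the LIGHT receptor gene, rose with TAMo to 41.8 and 37.1 FPKM from 6.48 and 6.76 FPKM, and the ratio of Tnfsf14 to it went from 2.26 and 2.10 to 0.456 and 0.511. Tnfrsf1b, which encodes TNF receptor 2, rose in both co-cultures, from 29.8 and 29.3 FPKM to 35.1 and 34.6 FPKM with TAN and 189.5 and 190.3 FPKM with TAMo, and Tnfrsf1a with TAMo (log2 change 0.46). Of the TRAIL receptor genes, Tnfrsf10b rose with TAMo by 2.90 and Tnfrsf22, a decoy receptor gene, by 0.71 on the log2 scale. Tnfrsf23, another decoy receptor gene, was at 0.274 and 0.321 FPKM with vehicle and 6.09 and 6.22 FPKM with TAMo. Cd40 rose by 0.38 with TAMo. Ltbr, Tnfrsf11a and Tnfrsf11b, whose proteins bind lymphotoxin-beta or RANK ligand, were not tested and reached at most 0.672 FPKM.

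**Figure D4:**
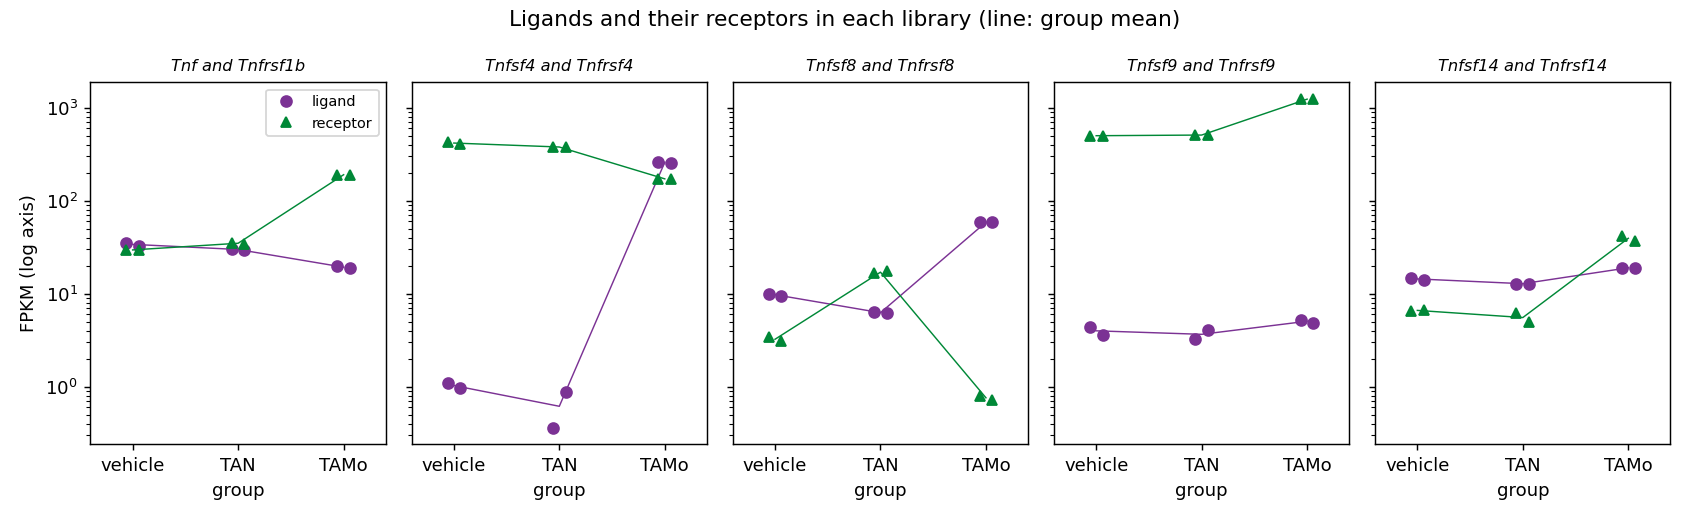
FPKM (log axis) of 5 ligands (circles) and a receptor of each (triangles) in every library, with lines through the group means. Tnfsf4 crosses above Tnfrsf4 with TAMo, and Tnfsf8 lies below Tnfrsf8 with TAN and above it in the other groups.

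Signal transducers below these receptors were described by a list of 30 genes, all tested. With TAN 1 of them was called higher and 9 lower (median -0.093). Over all genes 20.3% were called with TAN, 9.37% higher and 11% lower (median -0.0050). With TAMo 22 were called higher and 6 lower (median 0.72). There 86.5% of all genes were called, 45.7% higher and 40.7% lower (median 0.057). The number called with TAMo in either direction is thus near that of other genes. Its split into higher and lower is more uneven than theirs, which was not tested. The largest changes with TAN were those of Nfkbie (-0.36), Map3k14, the NIK kinase gene (-0.34), Nfkbia, which encodes the NF-kappaB inhibitor IkappaB-alpha (-0.27), and Nfkb2 (-0.27). With TAMo they were those of Tnfaip3, the gene of the inhibitor A20 (3.42), Cflar, which restrains caspase-8 (2.24), Nfkbia (2.18) and Tnip1 (2.17). Tnfaip3 measured 37.0 and 36.2 FPKM with vehicle and 403 and 401 FPKM with TAMo.

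For 9 of the ligands the gene outside the list with the closest pattern is given, by the Euclidean distance of log2(FPKM + 1) centred on its mean, over the 6 libraries and 10717 genes. These distances describe likeness over 3 groups only. Tnfsf4 had no close match: the nearest gene, Ak1, an adenylate kinase gene, lay 1.33 away. Tnfsf8 was nearest to Icam1, an adhesion molecule gene (0.273; 33.1 and 33.5 FPKM with vehicle, 26.0 and 26.1 with TAN, 192 and 186 with TAMo). Tnfsf11 was nearest to Irgm1, an interferon-inducible GTPase gene (0.0702), Tnfsf10 to Ctla4, an inhibitory receptor gene (0.194), and Cd40lg to the cytokine gene Il22 (0.114; 2.53 and 2.77 FPKM with vehicle, 5.68 and 4.93 with TAN, 3.29 and 4.24 with TAMo). For Tnf the nearest was Map1s (0.0327), for Ltb Them4 (0.0326), for Lta the cell cycle gene E2f7 (0.0848) and for Tnfsf9 Icam5 (0.0847). E2f7 was low, at 2.46 FPKM in both vehicle libraries and 0.185 and 0.239 FPKM with TAMo. Icam5 was at 0.720 and 0.548 FPKM with vehicle and 1.13 and 1.03 FPKM with TAMo. Ak1, which passed the filter through the TAMo libraries alone, went from 0.0962 and 0.0635 FPKM with vehicle to 71.3 and 69.1 FPKM with TAMo. Ctla4, nearest to the low Tnfsf10, was at 436 and 447 FPKM with vehicle and 219 and 226 FPKM with TAMo. On log2(FPKM + 1) the changes of low genes are understated, so a match between genes of different level does not mean like folds.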

How the data were processed

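RNA of 6 libraries (2 per group) was measured by sequencing. The authors deposited FPKM per gene and library; featureCounts 1.5.0-p3, HISAT2 2.0.5, CASAVA and the build mm10 are named, without role or order, per the submitters' processing notes. No source used here gives the annotation, gene lengths or strand setting. FPKM depends on all other transcripts of a library. Gene coordinates came from GENCODE mouse release 21 (GRCm38, the assembly of mm10). Depth was read from steps between low values (up to 40 reads) of 7708 genes with 1 transcript, of which 98.7% to 99.0% were whole within 0.1.

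The 10727 genes that reached 1 FPKM in 2 or more libraries were tested on log2(FPKM + 1) with limma 3.58.1 in R 4.3.3, one fit over all libraries with a mean-variance trend, 3 residual and 4.07 prior degrees of freedom, two-sided, Benjamini-Hochberg over all genes. The fit was tested on simulated data. Folds are ratios of group mean FPKM; log2 changes understate those of low genes. After ± stands the SD for FPKM and the SE for log2 changes. Replicates correlated at 0.996 to 0.998 and held no identical values above 0.

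The ligands and gene lists were chosen with earlier results of these data known; all ligands are named, their family and receptors, up to 4 called genes with the largest change per further list, and the nearest gene of each ligand (for Tnfsf14 it is not reported here). Promoters are RefSeq's. Of the alternatives, 17 were run.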

Additional observations from a re-analysis of the deposited data

How the results depend on the processing

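Of the 8 ligand calls with TAN, 3 (Tnfsf8, Tnfsf11 and Cd40lg) held under every alternative in which the gene was tested. Of the 10 with TAMo 8 did, all but Ltb and Tnfsf9. Among these 8 was Tnfsf4, for which a difference was built into its passing of the filter. With TAN, 5 ligands were called with no filter on low values, and between 4 and 8 when 1 library was left out. Over all genes the TAN count of 2180 went to 1331 with no filter and to between 703 and 823 without any 1 vehicle or TAN library. A replicate block called 7 ligands with TAN, 9 with TAMo and 9 between the co-cultures. It changed 2 calls, Tnfsf14 with TAN (adjusted p = 0.0596) and Tnfsf9 with TAMo (0.0597). Deviations of same-numbered libraries correlated at 0.057, 0.024 and 0.0078 over the genes tested. Such values cannot show whether same-numbered libraries came from one culture or animal, which the labels do not give. The sign turned for Tnfsf9 with TAN without vehicle replicate 1 (0.011) or TAN replicate 1 (0.020), with a range of -0.22 to 0.020 over single libraries left out, for Ltb with TAMo after rescaling to one sum (0.031), and for Ltb between the co-cultures with median-of-ratios scaling (0.015) or without TAN replicate 2 (0.029). Of these, Ltb with TAMo was the only call. Rescaling to one sum moved the median of all genes with TAMo by 0.19, to 0.25. Ltb between the co-cultures passed the threshold after that rescaling (-0.25, adjusted p = 0.0043), with mitochondrial transcripts left out of the sum (-0.15, 0.0411) and without TAN replicate 1 (-0.14, 0.0376). A mean of at least 5 FPKM left Tnfsf9, Tnfsf10 and Cd40lg untested, and in the fit of vehicle and TAN alone Tnfsf4 was untested. Few reads lay behind Tnfsf4 with vehicle (90 and 81) and TAN (30 and 72), and behind Cd70. The part of depth in their spread was not tested.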

Other observations

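Genes that release ligands from the membrane or control the decay of their mRNA were set beside the ligands, as a list of 15 of which 14 were tested. With TAN 1 of them was called higher and none lower (median 0.020), and with TAMo 11 were called higher and 2 lower (median 1.02). Over all genes tested 20.3% were called with TAN, 9.37% higher and 11% lower (median -0.0050). With TAMo 86.5% were called, 45.7% higher and 40.7% lower (median 0.057). The number called with TAMo in either direction is thus near that of other genes. Its split into higher and lower is more uneven than theirs, which was not tested. Adam17, the protease that sheds tumour necrosis factor, was at 18.7 and 18.6 FPKM with vehicle, 19.1 and 19.7 FPKM with TAN, and 27.7 and 28.3 FPKM with TAMo. Frmd8, which stabilises the complex of that protease, was the gene called with TAN (log2 change 0.13, limma adjusted p = 0.0261). With TAMo the largest changes were those of Adam8 (3.01), a metalloprotease gene, Zc3h12d (1.95) and Zfp36l1 (1.76), whose proteins act on mRNA decay, and Rhbdf2 (1.5), which encodes a partner of the sheddase. Zfp36, the gene of tristetraprolin, which destabilises the Tnf mRNA, was at 14.0 and 15.0 FPKM with vehicle and 25.2 and 24.2 FPKM with TAMo.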
